A study of Homo sapiens with 6 samples.

Results

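The genes described here are 7 matrix metalloproteinases (MMPs) and 3 tissue inhibitors of metalloproteinases (TIMPs), namely MMP1, MMP2, MMP3, MMP9, MMP10, MMP13, MMP14, TIMP1, TIMP2 and TIMP3. They were taken by name, 10 of the 58174 genes in the deposited values, with earlier results of these data known but by no threshold on a measured value. The samples were SiHa cells, a human cervical squamous carcinoma line, collected 48 h after Lipofectamine transfection with a GV230-BRCA1 plasmid (OV-BRCA1 group, n = 3) or with the GV230 plasmid alone (NC group, n = 3). Every sample therefore carried plasmid DNA, the transfection was transient, and the share of cells that took up plasmid was not given in the sources used here. Values are FPKM, a fragment count scaled to transcript length and sample depth, summed over the transcripts of a gene.

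MMPs are zinc-dependent proteases that cut proteins of the extracellular matrix and many cell surface and secreted proteins. Most are secreted as inactive proenzymes, are activated by plasmin, furin or other MMPs, and are blocked by TIMPs, which fill the catalytic cleft. Collagenases open the triple helix of fibrillar collagen, stromelysins degrade proteoglycans, laminin and fibronectin and activate other proMMPs, gelatinases cut denatured collagen and collagen IV, and membrane-type MMPs act at the cell surface. In squamous epithelium and its carcinomas these enzymes are known for their part in wound closure and invasion.

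The 7 MMPs share the catalytic zinc site, and its coding sequence is given because it shows how alike the members are. The stretch of 33 bases was read from the GENCODE release 29 transcript with the highest mean FPKM of each gene, and the capitals mark the codons of the 3 histidines that bind the zinc ion.
MMP1: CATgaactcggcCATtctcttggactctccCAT
MMP13: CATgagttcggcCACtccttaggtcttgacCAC
MMP3: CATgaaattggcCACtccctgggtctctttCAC
MMP10: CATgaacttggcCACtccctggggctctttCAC
MMP2: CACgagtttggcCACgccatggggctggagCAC
MMP9: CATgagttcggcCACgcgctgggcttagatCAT
MMP14: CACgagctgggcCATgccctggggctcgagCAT
In GRCh38 the stretch lies in a coding exon of each gene, MMP1 at chr11:102795549-102795581 (minus strand), MMP13 at chr11:102952115-102952147 (minus strand), MMP3 at chr11:102840535-102840567 (minus strand), MMP10 at chr11:102776718-102776750 (minus strand), MMP2 at chr16:55491827-55491859 (plus strand), MMP9 at chr20:46012453-46012485 (plus strand) and MMP14 at chr14:22843283-22843315 (plus strand). It is in exon 5 of MMP1, MMP13, MMP3, MMP10 and MMP14 and in exon 8 of the gelatinases MMP2 and MMP9, whose catalytic domain is split by fibronectin-like repeats. Between MMP3 and MMP10, 31 of the 33 bases were identical, against 18 to 27 in the other pairs. Over the whole coding sequence MMP3 and MMP10 were identical in 85.2% of 1428 aligned bases, and all other pairs in 57.4% to 66.3%. The longest run shared by MMP3 and MMP10 had 96 bases, whereas no other pair shared more than 23. The run lies within exon 3 of both genes, at chr11:102842434-102842529 in MMP3 and chr11:102779216-102779311 in MMP10 (minus strand), and is shown as the longest stretch in which these genes do not differ.
MMP3 and MMP10 shared run: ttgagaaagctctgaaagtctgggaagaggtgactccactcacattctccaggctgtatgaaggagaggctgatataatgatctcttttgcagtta

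BRCA1, the overexpressed gene, had FPKM values of 35.7, 40.8 and 34.9 for OV-BRCA1 replicates 1 to 3 against 20.1, 14.9 and 21.7 for NC replicates 1 to 3, so the groups did not overlap. Its log2 fold change of 0.95 (limma adjusted p = 0.00373) was short of the fold change used below to call a gene. The depth, estimated from the step size of low values, was 14.22 to 16.58 M fragments across OV-BRCA1 samples and 16.07 to 20.48 M across NC samples. The epithelial keratins KRT7, KRT8, KRT17 and KRT18 were abundant, but the squamous basal markers were low, with KRT5 at most 0.202 FPKM in any sample, TP63 0.262 ± 0.0937 against 0.0289 ± 0.0137 and KRT14 0.615 ± 0.101 against 0.208 ± 0.112 (OV-BRCA1 against NC, SD, n = 3). The summed FPKM of the epithelial and squamous list was 3209 to 3360 across OV-BRCA1 samples and 3586 to 3709 across NC samples, and of its 7 tested genes 4 passed the limma test described below by adjusted p-value as higher and 1 as lower, against 16.4% and 18.9% of all tested genes. The lower one was KRT17 (1033 ± 90.3 against 1434 ± 8.67), and the higher ones were KRT8 (373 ± 16.8 against 326 ± 12.3), KRT18 (252 ± 3.87 against 192 ± 6.05), EPCAM, which was called (6.79 ± 0.860 against 2.59 ± 0.457), and KRT6A (1.09 ± 0.106 against 0.173 ± 0.126), which passed the filter through the OV-BRCA1 samples alone. Fibroblasts and macrophages are strong MMP producers, and 7 of 10 fibroblast, 7 of 9 leukocyte and 5 of 6 endothelial marker genes were below 0.5 in every sample, with LUM, PTPRC, VWF and KDR at 0. The 3 tested fibroblast markers were COL1A1 (3.28 ± 0.270 against 6.39 ± 0.379), ACTA2 (4.91 ± 0.585 against 9.07 ± 0.817) and FAP (2.30 ± 0.232 against 1.72 ± 0.352). Of these, COL1A1 and ACTA2 passed by adjusted p-value as lower. The summed FPKM of the fibroblast list was 10.3 to 11.6 across OV-BRCA1 samples and 16.6 to 18.7 across NC samples, that of the endothelial list 0.870 to 1.54 and 0.712 to 0.841, and that of the leukocyte list 31.4 to 37.2 and 22.2 to 23.9. The leukocyte sum rested on CD68 (26.3 ± 3.73 against 3.43 ± 0.717, SD, n = 3) and CD14 (7.79 ± 1.20 against 19.4 ± 1.34). Mitochondrial transcripts took 14.8% to 17.2% of the summed FPKM across OV-BRCA1 samples and 21.0% to 23.2% across NC samples. The part of these differences in the results below was not tested beyond a rescaling given where it bears on a value.

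Between the groups, the collagenase MMP1 and the stromelysin MMP3 rose from about 1 FPKM or less to levels of the same order as those of TIMP3 and MMP14. The inhibitors TIMP1 and TIMP3 and the membrane-type enzyme MMP14 were abundant in both groups and differed by less than 1.5-fold. MMP10 and MMP13 were higher and MMP2 was lower in the OV-BRCA1 group at FPKM values below 1, MMP9 was at or near 0 throughout, and TIMP2 varied more within the groups than between them. Groups were compared with limma on log2(FPKM + 1), which understates the change of low genes, over the 16321 genes that reached 0.5 FPKM in 3 or more samples. A gene was called where its log2 fold change exceeded 1 in either direction with an adjusted p-value (Benjamini-Hochberg) under 0.05. Of the 10 genes, 6 passed the filter on low values, and 2 of these were called, both higher, where the criterion called 3.99% of all tested genes in either direction and 2.89% as higher. By the adjusted p-value alone 4 of the 6 passed, against 35.3% of all tested genes, and the 2 lower ones among these, TIMP1 and TIMP3, stand against 18.9% of tested genes that were lower by this rule. The groups did not overlap in 5 of the 6, as in 50.8% of all tested genes. The median log2 fold change of the 6 was -0.01, and that of all tested genes was -0.04.

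**Figure D1:**
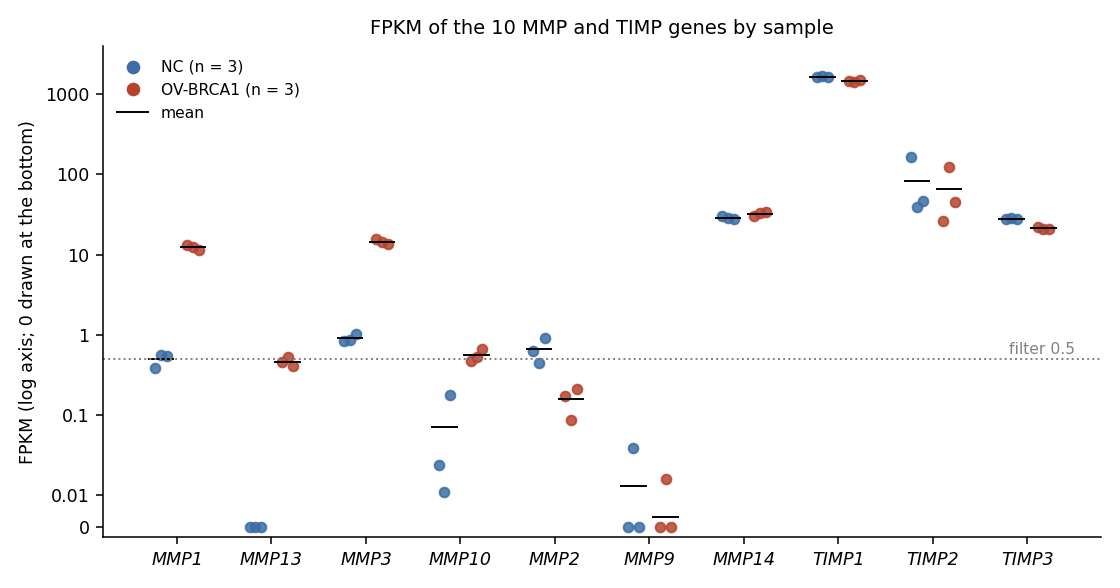
FPKM of each gene on a log axis, with values of 0 drawn at the bottom, in the 3 NC samples (blue) and the 3 OV-BRCA1 samples (red); black lines are group means and the dotted line is the filter of 0.5. MMP1 and MMP3 lie above 10 in every OV-BRCA1 sample and at or below 1.02 in every NC sample, TIMP1 lies at or above 1431 in all 6, and the TIMP2 samples scatter from 26.2 to 163 FPKM.

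Collagenases. MMP1 (interstitial collagenase, ENSG00000196611, chr11:102789920-102798160, minus strand) cleaves collagens I, II and III. Its FPKM was 13.1, 12.6 and 11.6 for OV-BRCA1 replicates 1 to 3 against 0.388, 0.559 and 0.546 for NC replicates 1 to 3. All OV-BRCA1 samples were thus far above all NC samples, with means of 12.4 ± 0.808 and 0.498 ± 0.0950 (SD, n = 3), a 25.0-fold ratio. MMP1 rose by 3.17 on the log2(FPKM + 1) scale (standard error 0.09, limma adjusted p = 6.03e-06), and 5 samples reached the filter of 0.5, all but NC sample 1. In fragments, the NC values correspond to an estimated 12.3 to 22.0 and the OV-BRCA1 values to 324 to 414. Only 1 transcript carries MMP1 in the files, ENST00000315274, so isoform assignment does not enter this value. The pseudogene WTAPP1, which overlaps 150 exon bases of MMP1 on the opposite strand, had at most 0.335 FPKM in any sample. The log2 fold change of MMP1 was 4.40 when the pseudocount was 0.1.

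MMP13 (collagenase 3, ENSG00000137745, chr11:102942995-102955734, minus strand) prefers collagen II. Its FPKM was 0.455, 0.524 and 0.407 for OV-BRCA1 replicates 1 to 3, and it was listed at 0 in all NC samples. It stood above 0 in only 1 of the groups, yet at a level far under that of MMP1, an estimated 15.7 to 23.6 fragments per sample. MMP13 did not pass the filter. An exact two-sided permutation test over the samples gave p = 0.1, which is the smallest value that 3 samples against 3 allow. No fold is given against a group listed at 0.

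Stromelysins. MMP3 (stromelysin 1, ENSG00000149968, chr11:102835801-102843803, minus strand) cuts proteoglycans and laminin and activates proMMP1. Its FPKM was 15.6, 14.2 and 13.4 for OV-BRCA1 replicates 1 to 3 against 0.830, 0.861 and 1.02 for NC replicates 1 to 3. The groups were again far apart, with means of 14.4 ± 1.13 and 0.903 ± 0.101 (SD, n = 3) and a 16.0-fold ratio. MMP3 rose by 3.02 on the log2(FPKM + 1) scale (standard error 0.09, limma adjusted p = 6.83e-06). Unlike MMP1 it was above 0.5 FPKM in every sample, on an estimated 26.9 to 42.0 fragments across NC samples. The coding transcript ENST00000299855 carried 98.9% of its FPKM. Within samples, MMP3 exceeded MMP1 by 1.13 to 1.19 times across OV-BRCA1 samples and by 1.54 to 2.14 times across NC samples.

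MMP10 (stromelysin 2, ENSG00000166670, chr11:102770503-102780628, minus strand) has substrates much like those of MMP3. Its FPKM was 0.477, 0.531 and 0.674 for OV-BRCA1 replicates 1 to 3 against 0.0237, 0.0111 and 0.178 for NC replicates 1 to 3. Every OV-BRCA1 sample was above every NC sample, but the NC values correspond to an estimated 0.370 to 6.41 fragments and the OV-BRCA1 values to 13.4 to 16.9. MMP10 did not pass the filter, and the exact two-sided permutation p was 0.1, the smallest possible. MMP10 amounted to 3.05%, 3.74% and 5.03% of the MMP3 FPKM for OV-BRCA1 replicates 1 to 3 against 2.86%, 1.29% and 17.5% for NC replicates 1 to 3.

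A promoter window, 250 bases before the RefSeq start site to 50 after it, was at hand in the RefSeq table (GRCh38.p14) for 4 of the 10 genes, MMP10, MMP14, TIMP1 and TIMP3. That of MMP10 is shown up to the start site, as the only one of a gene from the chromosome 11 cluster, at chr11:102780629-102780878 (minus strand). Capitals mark a match to the AP-1 motif TGANTCA, which begins 67 bases before the start site, and a TATA box (TATAAA or, on the other strand, TTTATA), which begins 31 bases before it, and they do not overlap.
MMP10 promoter: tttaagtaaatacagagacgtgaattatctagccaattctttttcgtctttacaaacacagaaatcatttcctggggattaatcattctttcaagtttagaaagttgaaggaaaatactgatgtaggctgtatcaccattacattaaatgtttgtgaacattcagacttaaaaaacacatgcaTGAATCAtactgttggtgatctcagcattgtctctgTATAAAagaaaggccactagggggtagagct
The AP-1 motif, which reads the same on both strands, occurred in 7.7% of 35116 promoter windows of 300 bases and the TATA motif in 11.5%, and neither was found in the windows of MMP14, TIMP1 or TIMP3. The SP1 motif GGGCGG, or on the other strand CCGCCC, held by 45.0% of windows, was found 5 times in TIMP3, 2 times in TIMP1, 1 time in MMP14 and not in MMP10. The ETS motif AGGAAG, or on the other strand CTTCCT, held by 33.6% of windows, was found 1 time in TIMP1. The GC content was 36.3% in the MMP10 window, 55.0% in MMP14, 65.0% in TIMP1 and 72.7% in TIMP3, and the median of all windows was 58.7%. Only exact matches were counted, so near variants of a motif, such as TGAGTAA in the TIMP1 window for AP-1, were left out. These are matches of letters and not measured binding.

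MMP1 and MMP3, which rose, and MMP10 and MMP13, whose OV-BRCA1 values were all above the NC values, lie together in the MMP cluster of chromosome 11, where 9 MMP genes on the same strand span 435.2 kb. The 5 other genes of the cluster were MMP7, MMP8, MMP12, MMP20 and MMP27. MMP8, MMP20 and MMP27 were listed at 0 in all samples. MMP7 (matrilysin) had at most 0.110 FPKM and MMP12 (macrophage elastase), which lies between MMP3 and MMP13, at most 0.0662, each in OV-BRCA1 sample 2. These neighbours in the cluster thus stayed near 0 in both groups.

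**Figure D2:**
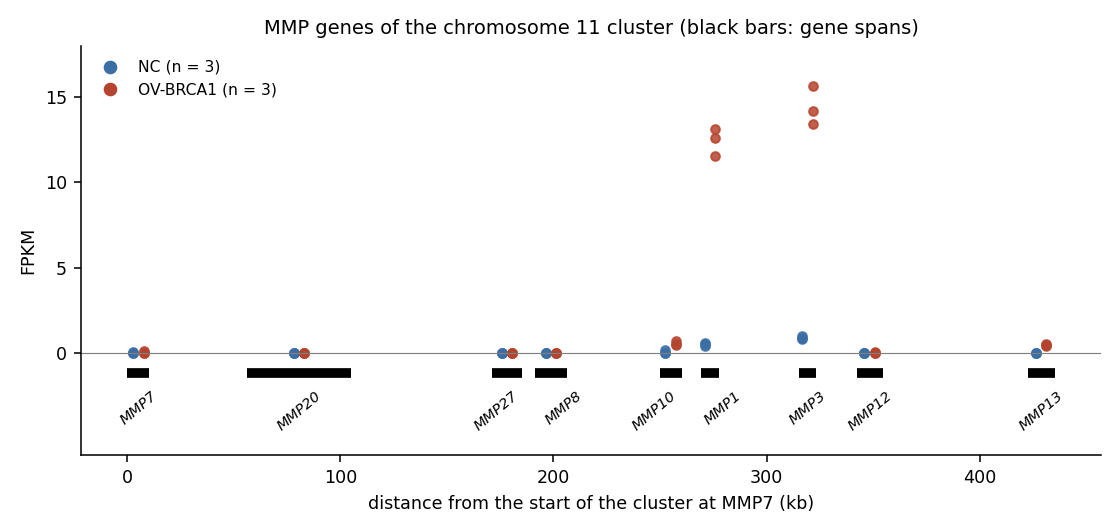
FPKM of the 9 MMP genes of the chromosome 11 cluster against distance from its start in kb, in the 3 NC samples (blue) and the 3 OV-BRCA1 samples (red); black bars are the gene spans. The OV-BRCA1 samples stand above 10 FPKM at MMP1 and MMP3, below 1 at MMP10 and MMP13, and near 0 at the other genes.

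Gelatinases. MMP2 (gelatinase A, ENSG00000087245, chr16:55389700-55506691, plus strand), which is typical of stromal cells and is activated by MMP14 together with TIMP2, had its higher values in the NC group. Its FPKM was 0.175, 0.0862 and 0.210 for OV-BRCA1 replicates 1 to 3 against 0.627, 0.447 and 0.912 for NC replicates 1 to 3. All OV-BRCA1 samples were below all NC samples, with means of 0.157 ± 0.0638 and 0.662 ± 0.235 (SD, n = 3) on an estimated 5.35 to 11.2 and 29.6 to 46.4 fragments. It did not pass the filter, and the exact two-sided permutation p was 0.1, the smallest possible. The full-length transcript ENST00000219070 carried 75.1% of its FPKM, with values of 0.175, 0.0862 and 0.210 against 0.627, 0.220 and 0.528. MMP9 (gelatinase B, ENSG00000100985, chr20:46008908-46016561, plus strand), the gelatinase of neutrophils and activated keratinocytes, was listed at 0 in 4 samples and at 0.0159 in OV-BRCA1 sample 2 and 0.0394 in NC sample 2. That is at most an estimated 1.75 fragments, so no difference was detectable at this depth (exact two-sided permutation p = 1).

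For these low genes 2 further fits were made. Without the filter on low values, where 14.5% of 33326 genes passed by the adjusted p-value alone, the adjusted p-values from limma were 0.0122 for MMP10, 0.00104 for MMP13, 0.0406 for MMP2 and 0.770 for MMP9. With a filter of 0.1 FPKM and a pseudocount of 0.1, a setting chosen after the values had been seen, 7.67% of 21734 genes met the full criterion, among them MMP10 (log2 fold change 2.07, standard error 0.41, adjusted p = 0.0135), MMP2 (-1.56, standard error 0.34, adjusted p = 0.0185) and MMP13 (adjusted p = 0.00118). The fitted fold change of MMP13 depends on the pseudocount, since NC is listed at 0, and is not given. MMP13 entered that fit through the OV-BRCA1 samples alone and MMP10 through these and NC sample 3, so the filter itself favoured a difference in both, and their adjusted p-values are given as a description. MMP9 did not pass that filter. SLC12A5-AS1, which shares 430 exon bases with MMP9 on the opposite strand, had 0.189 to 0.394 FPKM across all samples.

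Membrane-type MMP. MMP14 (MT1-MMP, ENSG00000157227, chr14:22836557-22849027, plus strand) is anchored in the plasma membrane, cuts collagen at the invading edge and activates proMMP2. Its FPKM was 30.7, 32.8 and 33.7 for OV-BRCA1 replicates 1 to 3 against 30.1, 28.7 and 27.5 for NC replicates 1 to 3. The groups did not overlap but lay close, with means of 32.4 ± 1.52 and 28.8 ± 1.31 (SD, n = 3). The log2 fold change of 0.17 (standard error 0.06, 95% interval 0.02 to 0.31, limma adjusted p = 0.0799) did not pass the test. The coding transcript ENST00000311852 carried 93.7% of its FPKM.

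Inhibitors. TIMP1 (ENSG00000102265, chrX:47582313-47586789, plus strand) inhibits most soluble MMPs and also binds proMMP9. It was the most abundant of the 10 genes in every sample, with an FPKM of 1459, 1431 and 1490 for OV-BRCA1 replicates 1 to 3 against 1622, 1689 and 1642 for NC replicates 1 to 3. The OV-BRCA1 samples were lower without overlap, 1460 ± 29.7 against 1651 ± 34.6 (SD, n = 3). The log2 fold change was -0.18 (standard error 0.04, 95% interval -0.27 to -0.09, limma adjusted p = 0.0124), which is past the adjusted p-value but far from the fold change of the criterion. Without the filter on low values its adjusted p-value was 0.109, and tested as its most abundant transcript its log2 fold change was -0.36 (limma adjusted p = 0.181). The main coding transcript ENST00000218388 had 917, 1215 and 1288 FPKM for OV-BRCA1 replicates 1 to 3 against 1467, 1423 and 1459 for NC replicates 1 to 3. OV-BRCA1 sample 1 stood apart in ENST00000456754, which had 452 FPKM there and 83.7 to 161 in the other samples, although its TIMP1 sum was within the range of its group.

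TIMP3 (ENSG00000100234, chr22:32801701-32863043, plus strand) is the inhibitor that stays bound to the matrix and also blocks ADAM17. Its FPKM was 22.0, 20.9 and 20.8 for OV-BRCA1 replicates 1 to 3 against 28.0, 28.3 and 28.2 for NC replicates 1 to 3. The OV-BRCA1 samples were lower without overlap and the NC samples were nearly equal, 21.2 ± 0.690 against 28.2 ± 0.150 (SD, n = 3). The log2 fold change was -0.39 (standard error 0.05, 95% interval -0.52 to -0.27, limma adjusted p = 0.00204), again past the adjusted p-value alone. A single transcript carries TIMP3 in the files. SYN3, whose intron holds TIMP3 on the opposite strand, had at most 0.0325 FPKM.

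TIMP2 (ENSG00000035862, chr17:78852977-78925387, minus strand) binds MMP14 and takes part in the activation of proMMP2. Its FPKM was 26.2, 124 and 45.0 for OV-BRCA1 replicates 1 to 3 against 163, 39.7 and 46.9 for NC replicates 1 to 3. The groups overlapped widely, since OV-BRCA1 sample 2 and NC sample 1 stood above 100 and the other samples below 50. The log2 fold change of -0.35 (standard error 0.72, 95% interval -2.09 to 1.40, limma adjusted p = 0.742) leaves both directions possible. It was -0.95 without OV-BRCA1 replicate 2, 0.29 without NC replicate 1 and 0.15 without OV-BRCA1 replicate 1, so single samples turned its direction. The same samples stood apart in the transcript ENST00000262768, which had 107 FPKM in OV-BRCA1 sample 2, 104 in NC sample 1 and 15.1 to 17.3 in the other samples. The other 4 transcripts together had 8.86, 16.5 and 29.8 FPKM for OV-BRCA1 replicates 1 to 3 against 59.4, 23.2 and 29.9 for NC replicates 1 to 3. The cause was not tested. CEP295NL, which shares 198 exon bases with TIMP2 on the same strand, had at most 0.549 FPKM in any sample.

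**Figure D3:**
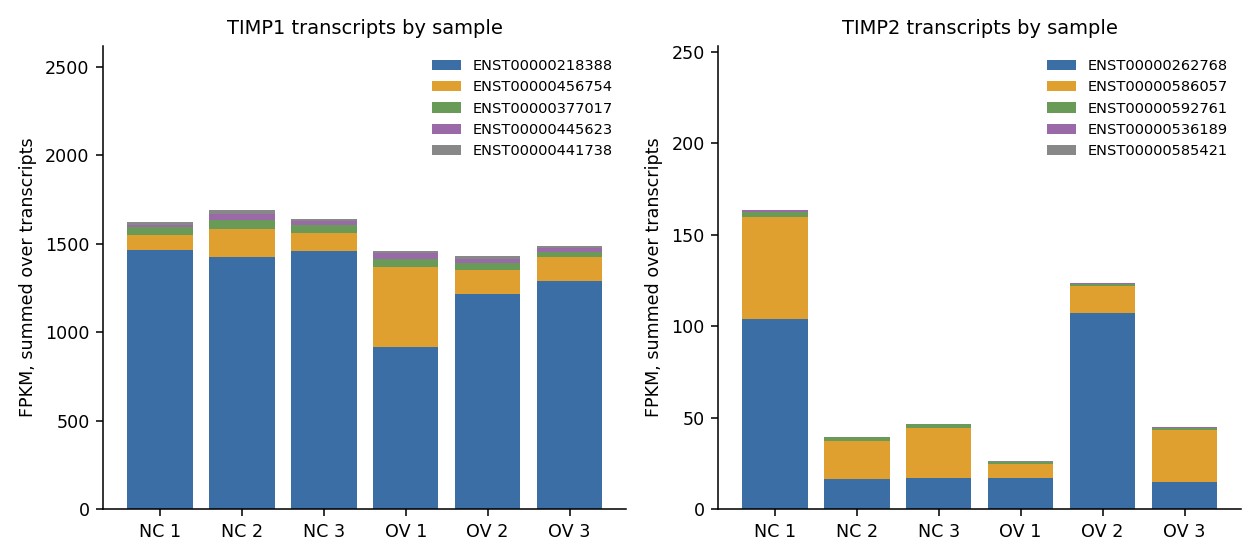
Stacked bars of FPKM by transcript for TIMP1 (left) and TIMP2 (right) in NC samples 1 to 3 and OV-BRCA1 samples 1 to 3 (labelled OV). The TIMP1 sums lie between 1431 and 1689 in all samples, whereas the TIMP2 transcript ENST00000262768 is above 100 FPKM in NC sample 1 and OV-BRCA1 sample 2 only.

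Compared per length, the order of the levels across NC samples was TIMP1, TIMP2, MMP14, TIMP3, MMP3, MMP2, MMP1, MMP10, MMP9 and MMP13. In this order the ranges of MMP14 and TIMP3, of MMP3 and MMP2, of MMP2 and MMP1, of MMP10 and MMP9, and of MMP9 and MMP13 overlapped between neighbours. In the OV-BRCA1 group the order was TIMP1, TIMP2, MMP14, TIMP3, MMP3, MMP1, MMP10, MMP13, MMP2 and MMP9, and only the ranges of TIMP2 and MMP14 and of MMP10 and MMP13 overlapped between neighbours. MMP2 thus stood above MMP1, MMP10 and MMP13 in one order and below them in the other.

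As a description of the balance between enzymes and inhibitors, the summed FPKM of the 7 MMPs was 60.6, 60.8 and 60.0 for OV-BRCA1 replicates 1 to 3 against 32.0, 30.7 and 30.2 for NC replicates 1 to 3. MMP1 and MMP3 together made up 41.6% to 47.5% of that sum across OV-BRCA1 samples and 3.81% to 5.19% across NC samples, and MMP14 made up 50.7% to 56.2% and 91.2% to 94.2%. The summed FPKM of the 3 TIMPs was 1507 to 1576 across OV-BRCA1 samples and 1717 to 1813 across NC samples, of which TIMP1 held 89.4% to 96.8%. TIMP1 exceeded MMP1 by 111 to 129 times across OV-BRCA1 samples and by 3006 to 4175 times across NC samples, and it exceeded MMP14 by 43.6 to 47.4 times and 53.8 to 59.7 times. In every sample the summed inhibitor transcripts were thus in excess, by a smaller factor in each OV-BRCA1 sample than in any NC sample. TIMP1 held most of this excess, and TIMP3 was 0.616 to 0.716 times MMP14 across OV-BRCA1 samples and 0.930 to 1.02 times across NC samples. These are ratios of RNA levels and say nothing of active protein.

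The remaining family, written as a list of 17 MMP and TIMP genes with earlier results of these data known, had 6 genes above the filter. Over all tested genes 2.89% were called higher and 1.10% lower, and by the adjusted p-value alone 16.4% passed as higher and 18.9% as lower. Of the 6 only MMP23B, a small MMP anchored by its N terminus, was called, with 3.89, 3.62 and 2.95 FPKM for OV-BRCA1 replicates 1 to 3 against 1.23, 1.25 and 0.846 for NC replicates 1 to 3 (log2 fold change 1.09, standard error 0.13, limma adjusted p = 0.00141). It has a near-identical copy in MMP23A, listed at 2.64 to 3.36 FPKM across OV-BRCA1 samples and 0.885 to 1.26 across NC samples, so its reads may be split. Without NC replicate 3 the log2 fold change of MMP23B was 0.996, and as its most abundant transcript it was 0.933, both under the criterion. The membrane-type MMP15 was 24.0 ± 0.612 across OV-BRCA1 samples and 16.1 ± 1.20 across NC samples (SD, n = 3, adjusted p = 0.00178 from limma). MMP11 (stromelysin 3) was 0.846 ± 0.0934 and 2.12 ± 0.238 (adjusted p = 0.00194 from limma), and MMP28 (epilysin) was 1.00 ± 0.0998 and 2.12 ± 0.0620 (adjusted p = 0.00208 from limma), all 3 short of the fold change with a pseudocount of 1. With 0.1, MMP11 (-1.23) and MMP28 (-1.01) were called lower, as were 3.16% of all tested genes. MMP17 (log2 fold change 0.46, adjusted p = 0.0505 from limma) and TIMP4 (-0.17, adjusted p = 0.239 from limma) did not pass. MMP17 lay at the threshold, with an adjusted p-value from limma of 0.0473 with a pseudocount of 0.1 and 0.0417 with median-of-ratios scaling, and its log2 fold change as the most abundant transcript was 0.06 (adjusted p = 0.952). The median log2 fold change of the 6 was 0.15.

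**Figure D4:**
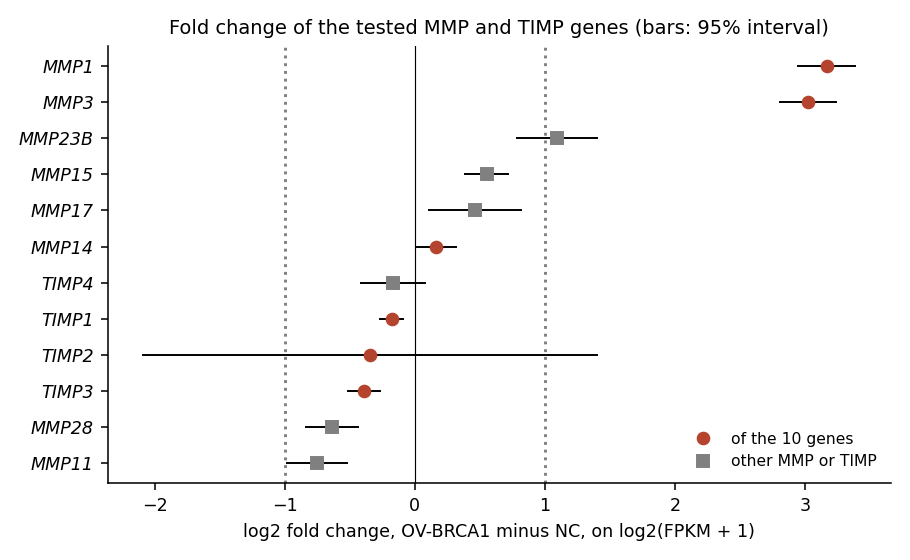
Log2 fold change on log2(FPKM + 1), OV-BRCA1 minus NC, of the tested genes with 95% intervals from limma; red circles belong to the 10 genes, grey squares are other MMP or TIMP genes, and dotted lines mark the fold change of the criterion. MMP1 (3.17) and MMP3 (3.02) stand apart, and the TIMP2 interval runs from -2.09 to 1.40.

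Of 11 genes of proMMP activation and the plasmin system, 8 were tested and 3 were called, all higher, against 2.89% of all tested genes. By the adjusted p-value alone 5 passed as higher, where 16.4% of all tested genes did. The median of the list was a log2 fold change of 0.79. SERPINB2 (PAI-2), an inhibitor of urokinase, rose from 0.380 ± 0.120 to 16.0 ± 0.664 FPKM (SD, n = 3), and PLAUR, the urokinase receptor, from 57.6 ± 1.33 to 135 ± 2.72. SERPINB2 was below 0.5 FPKM in every NC sample, so it passed the filter through the OV-BRCA1 samples alone and was not tested when any of these was left out. The plasminogen activators themselves were low, with PLAU at most 0.258 and PLAT at most 0.304 FPKM in any sample. Tested as its most abundant transcript, SERPINB2 had a log2 fold change of 3.24 in place of 3.63 with an adjusted p-value of 0.0579 (limma). Among 11 other regulators at the cell surface 9 were tested, 3 passed the adjusted p-value as higher and 1 as lower, near the 35.3% of all tested genes that passed in either direction, and CLDN1, a tight junction protein that can recruit MMPs, was called (12.4 ± 0.820 to 39.1 ± 2.15 FPKM). The median of this list was -0.03. RECK, a membrane inhibitor of MMPs, and BSG, an inducer of MMPs, had log2 fold changes of 0.10 and -0.04 (limma adjusted p = 0.562 and 0.539), and were picked out with their values known.

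Of 11 ADAM sheddases 7 were tested, with a median of 0.22, and ADAM12 was the only one past the adjusted p-value (3.81 ± 0.276 against 2.59 ± 0.141 FPKM, log2 fold change 0.42), which as its most abundant transcript was 0.28 and did not pass (limma adjusted p = 0.273). ADAM15 had a log2 fold change of 0.30 (limma adjusted p = 0.0531). Its adjusted p-value from limma was 0.0395 with median-of-ratios scaling and 0.0162 without OV-BRCA1 replicate 3. As its most abundant transcript its log2 fold change was -0.556 (limma adjusted p = 0.665). Of 18 ADAMTS proteases 5 were tested, with a median of -0.42, where 2 passed the adjusted p-value as higher and 3 as lower, against 16.4% and 18.9% of all tested genes. ADAMTS17, 1 of the 2 higher ones, reached the filter through the OV-BRCA1 samples and NC sample 1 only. ADAMTS1, which cuts versican and aggrecan, was the called one and rose from 15.8 ± 0.522 to 35.2 ± 0.220 FPKM.

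Of 15 AP-1 and ETS factors, which bind elements in many MMP promoters, 14 were tested, 3 passed the adjusted p-value as higher and 5 as lower (16.4% and 18.9% of all tested genes), and the median was 0.01. FOSL1 rose from 17.1 ± 3.48 to 78.5 ± 12.8 FPKM (SD, n = 3), whereas FOS fell from 312 ± 15.2 to 70.6 ± 2.33 and FOSB from 47.2 ± 2.87 to 14.1 ± 0.317. The AP-1 family therefore held called members in both directions. JUN, named after its values had been seen, was 48.1 ± 1.20 against 49.6 ± 1.42 FPKM (limma adjusted p = 0.509). Of 17 cytokines and growth factors known to induce MMPs, 13 were tested and 12 passed the adjusted p-value, all higher, with a median of 0.77, where 16.4% of all tested genes passed as higher. IL1A, 1 of the 12, was below 0.5 FPKM in every NC sample and was tested through the OV-BRCA1 samples alone. This list too was written with earlier results known. The chemokine CXCL8 rose from 5.84 ± 0.450 to 126 ± 5.02 FPKM, LIF from 8.93 ± 0.0998 to 46.6 ± 1.28 and IL6 from 169 ± 13.4 to 567 ± 19.6. Of 15 matrix substrates 8 were tested, 5 passed as higher and 3 as lower, with a median of 0.53, against the same shares of 16.4% and 18.9%. TNC, tenascin C, rose from 13.1 ± 3.23 to 47.5 ± 4.57 FPKM, and COL5A1, a chain of collagen V, fell from 50.5 ± 0.685 to 23.7 ± 0.893. Tested as the most abundant transcript alone, FOSB (log2 fold change -1.45 in place of -1.68), TNC (1.45 in place of 1.80) and COL5A1 (-2.33 in place of -1.06) kept their sign but were not called (limma adjusted p = 0.509, 0.160 and 0.291).

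**Figure D5:**
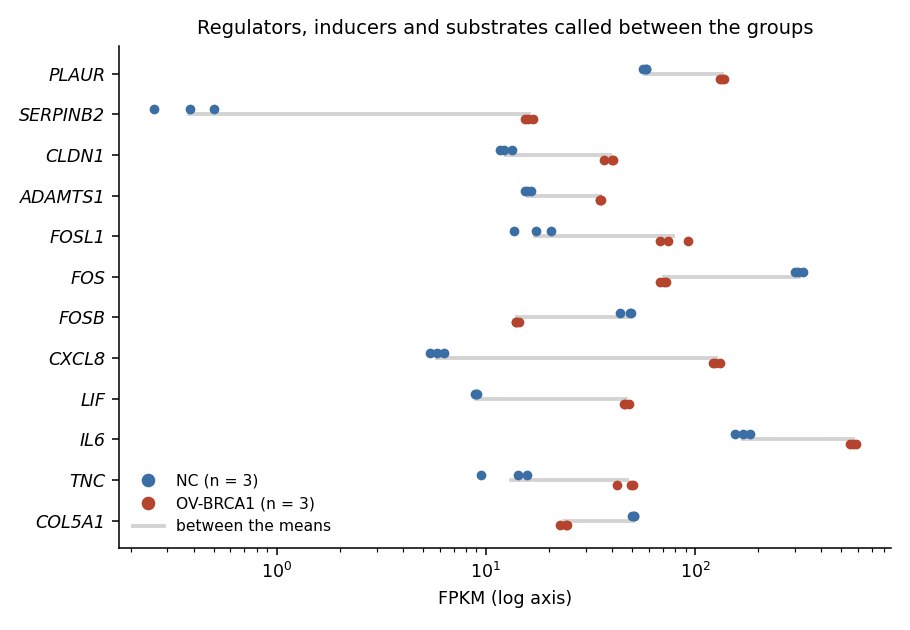
FPKM on a log axis of 12 genes called in the lists of regulators, inducers and substrates, in the 3 NC samples (blue) and the 3 OV-BRCA1 samples (red); grey bars join the group means. Of these, all but FOS, FOSB and COL5A1 lie higher in OV-BRCA1 samples, and SERPINB2 spans the widest range, from 0.380 to 16.0 FPKM on average.

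With FPKM rescaled to the total without mitochondrial genes, a check added after the values had been seen, the log2 fold changes were 3.15 for MMP1, 2.99 for MMP3, 0.13 for MMP14, -0.21 for TIMP1 and -0.42 for TIMP3. The factors by which samples were divided lay between 0.986 and 1.02, so this rescaling could move no gene by much. In these bulk samples a change per cell and a change in the number of cells that express a gene cannot be told apart.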

How the data were processed

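SiHa cells were profiled by mRNA sequencing with a Hieff NGS MaxUp Dual-mode kit, in 3 samples per group that the study calls biological replicates. The authors deposited FPKM values for 199167 transcripts of 58174 genes, after removal of adapters, unknown bases and low-quality reads. The submitters' processing notes name FastQC, HISAT2 and hg38. The quantifier, the annotation and the strand setting were not given in the sources used here, so genes that overlap on opposite strands cannot be separated with certainty. Replicate and group came from the labels.

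Transcript FPKM was summed per gene, named by GENCODE release 29 (198868 transcripts matched, 98.7% at the same GRCh38 position). The design allowed for FPKM or counts, and limma 3.58.1 (R 4.3.3) with a mean-variance trend was run on log2(FPKM + 1) for genes that reached 0.5 FPKM in 3 or more samples. Genes below the filter were compared by exact permutation (scipy 1.17.1). Depth was estimated from the step of low FPKM values in 14216 single-transcript genes. Only 32.4% to 37.1% of these values lay within 0.1 of a whole fragment, so whole reads were not recovered, and estimates cover counting error only. A score of how near values lay to whole fragments was 0.196 to 0.224 at the chosen depths. The best score at another depth was 0.149 to 0.198, so depths and fragment numbers are approximate. The fit was checked on simulated data. The 10 genes and all gene lists were chosen with earlier results of these data known. Named genes were the 10, the tested genes of the other MMP and TIMP list, and per list up to 4 called genes with the smallest adjusted p-values or, with no called gene, the 2 with the largest absolute log2 fold change. The values of 1 gene that this takes in are left out here. Of the genes overlapping one of the 10, WTAPP1, SLC12A5-AS1, CEP295NL and SYN3 are named here and the others are not. Cell type markers, the untested genes of the chromosome 11 cluster, MMP23A, BRCA1, PLAU, PLAT, RECK, BSG, ADAMTS17, JUN and IL1A stand outside this rule and were named with their values known. Alternatives were a pseudocount of 0.1, no filter, each sample left out, the replicate number as a block, median-of-ratios scaling, the most abundant transcript and the adjusted p-value alone.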

Additional observations from a re-analysis of the deposited data

How the results depend on the processing

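MMP1 and MMP3 kept their direction and their call under all alternatives run. The number of the 10 genes called was 5 with a filter of 0.1 and a pseudocount of 0.1 (chosen after seeing the data), where MMP10, MMP13 and MMP2 were added, and 4 by the adjusted p-value alone. The count over all tested genes was 651 of 16321, and 1280 of 16321 with a pseudocount of 0.1 and 1667 of 21734 with that filter and pseudocount. With a pseudocount of 0.1, called genes numbered 3 in the list of other MMP and TIMP genes (MMP11 and MMP28 were then called lower), 3 in the ADAMTS list and 5 in the cytokine list. With single samples left out, the list of other MMP and TIMP genes ranged from 0 (without NC replicate 3) to 1 called gene, that of activation and the plasmin system from 2 (without any 1 OV-BRCA1 replicate, where SERPINB2 is not tested) to 4 (without NC replicate 1), and that of cell surface regulators from 1 to 2 (without NC replicate 2), and the log2 fold change of TIMP2 ranged from -0.95 to 0.287. Its sign turned when either OV-BRCA1 replicate 1 (0.147) or NC replicate 1 (0.287) was left out. Tested as its most abundant transcript, ADAM15 turned to -0.556. The cause was not tested. The samples share replicate numbers only, with correlations of same-numbered deviations from the group means of -0.024, 0.025 and 0.014, and with the replicate block 646 genes were called. Depth limits MMP9, MMP10, MMP13 and MMP2, which rest on fewer than 50 estimated fragments in every sample.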
